A study of Mus musculus with 298 samples.

Results

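The genes described here are 42 mouse genes of platelets and of megakaryocytes, the bone marrow cells that shed platelets. They were taken as a list of names covering receptors, granule cargo, cytoskeleton and signalling proteins, drawn up with earlier results of the same libraries in view, and all 42 were found by name among the 14605 genes of the expression values. All 42 passed the filter on low values (a mean of at least 1 TPM over all libraries) and were tested among 10519 genes. Sparc passed it only through 1 control library, described below. Because the list was drawn up in that way, counts over its members are descriptions, set beside the share of all tested genes that passed. RNA of whole blood was sequenced in 298 libraries from 20 C57BL/6 mice followed by the week. All 20 mice carried a tTA transgene (tTA+/-), driven by the SCL promoter and blocked by tetracycline, and a BCR-ABL transgene (BCR-ABL+/-) under its control, so that BCR-ABL, the fusion kinase of chronic myeloid leukaemia, is made when tetracycline is withdrawn (Tet-off). They were 6 to 8 weeks old and of both sexes. In the TKI cohort (7 mice, 99 libraries) tetracycline was withdrawn and nilotinib, an inhibitor of that kinase, was given by gavage at 50 mg/kg a day for 4 weeks, from week 6 to week 10. The TOTO cohort (4 mice, 48 libraries) was off tetracycline to week 6 and back on it afterwards. The CML cohort (6 mice, 94 libraries) was off tetracycline throughout and untreated. In the 3 control mice (57 libraries) tetracycline was never removed from the drinking water, where it was given at 0.5 g/L, so that these mice carry both transgenes with BCR-ABL off. The first 3 cohorts together are called Tet-off mice (17 mice) for the weeks before any treatment.

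Several facts of the series bear on every value below. Haemoglobin transcripts took 0.331 to 74.7% of the TPM of a library and the small cytoplasmic RNA Rn7s2 took 14.5 to 56.0%, so that the TPM of every other gene moves when these do. Each comparison was therefore made a second time with every library divided by its size factor, the median ratio of its genes to their means over libraries, and those results are called rescaled. The change of the median tested gene is given beside the members. The human BCR-ABL transcripts reached 36.0 TPM in TKI, 16.0 in TOTO and 49.7 TPM in CML libraries, against 0.716 TPM at most in control libraries, but in the mouse labelled CML 487 they were at 0 in 16 of 19 libraries. The tissue label names mononuclear cells while the extraction protocol names whole blood, and platelet, neutrophil and red cell markers were all present. All TOTO mice belong to the sequencing batch 2022_A, and batch is constant within a mouse. The library of control mouse 490 at week 17 stood apart, with 12 of the 42 genes at 0 and 2552 genes at 1 TPM or more, against a median of 9965. None of the tested changes uses it, but it counts in the mean TPM used by the filter on low values. It also counts in the genes and means behind the size factors, and in values given over all libraries or all control libraries. The separate mice are the replicates. In bulk blood, fewer platelets and less RNA per platelet cannot be told apart.

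Platelets have no nucleus, and the RNA they carry is what the megakaryocyte packed into them. Newly made platelets hold more RNA than older ones, and much of it decays during the days a platelet circulates. In chronic myeloid leukaemia the BCR-ABL kinase arises in a haematopoietic stem cell, and megakaryocytes and platelets are part of the leukaemic clone together with granulocytes. At a wound the von Willebrand factor and collagen receptors catch the platelet, ADP and thromboxane receptors amplify the signal, the integrin of Itga2b and Itgb3 binds fibrinogen, and granules release chemokines, coagulation factors and matrix proteins.

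The promoters of 4 members are shown because the results below turn on these genes: Itga2b and Pf4 are widely used megakaryocyte markers, Clca3a1 rose most in the first week, and P2ry12 is one of those that did not pass then. Each run is the 250 bases before the RefSeq gene start on the gene's strand, 5′ to 3′, in the build GRCm38.p6, with matches to the searched motifs in capitals. Itga2b lies at chr11:102469884-102470133 on the minus strand, Pf4 at chr5:90772185-90772434 on the plus strand, Clca3a1 at chr3:144760978-144761227 on the minus strand and P2ry12 at chr3:59262986-59263235 on the minus strand.
Itga2b: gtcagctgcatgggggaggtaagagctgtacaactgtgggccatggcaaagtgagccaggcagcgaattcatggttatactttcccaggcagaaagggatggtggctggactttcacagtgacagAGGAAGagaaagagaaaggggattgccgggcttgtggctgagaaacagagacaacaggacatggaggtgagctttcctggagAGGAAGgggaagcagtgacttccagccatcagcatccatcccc
Pf4: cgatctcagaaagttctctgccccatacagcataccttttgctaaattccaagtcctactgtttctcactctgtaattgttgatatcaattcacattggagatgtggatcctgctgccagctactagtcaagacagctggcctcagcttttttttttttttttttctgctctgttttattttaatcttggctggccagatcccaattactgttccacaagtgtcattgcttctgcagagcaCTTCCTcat
Clca3a1: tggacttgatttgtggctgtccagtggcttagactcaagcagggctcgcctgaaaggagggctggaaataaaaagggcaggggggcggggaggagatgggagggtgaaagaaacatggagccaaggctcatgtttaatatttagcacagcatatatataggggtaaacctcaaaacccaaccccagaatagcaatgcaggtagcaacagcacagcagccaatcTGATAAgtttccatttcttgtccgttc
P2ry12: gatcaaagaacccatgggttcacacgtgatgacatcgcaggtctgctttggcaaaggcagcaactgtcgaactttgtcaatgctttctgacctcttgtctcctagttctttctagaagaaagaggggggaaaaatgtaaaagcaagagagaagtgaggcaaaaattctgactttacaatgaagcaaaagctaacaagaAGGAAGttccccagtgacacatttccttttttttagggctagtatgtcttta

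3 motifs of megakaryocyte transcription factor families were searched on both strands of these windows. RefSeq gave windows for 35 of the 42 genes (39 windows). A GATA motif (the letters AGATAA, or the letters TGATAA, or the letters AGATAG, or the letters TGATAG) was found in 9 of 39 member windows (23.1%, 8 genes), against 26.5% of all 32851 windows. The ETS motif AGGAAG was in 15 of 39 windows (38.5%), against 29.5% of all, and the NF-E2 or AP-1 motif TGAGTCA in 2 of 39 (5.13%), against 4.46% of all. No member window held all 3, against 0.481% of all windows. In the printed windows, Clca3a1 holds 1 GATA match, Itga2b 2 ETS matches, and Pf4 and P2ry12 1 ETS match each (the Pf4 match is on the other strand). These matches only say which letters stand in these windows.

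All 42 genes are protein coding and lie on 16 chromosomes. The chemokine genes Pf4 (GRCm39 chromosome 5, 90918479 to 90922110) and Ppbp (GRCm39 chromosome 5, 90916371 to 90917930) are neighbours 548 bases apart, and the genes of both subunits of the nitric oxide receptor, Gucy1a1 and Gucy1b1, lie 17710 bases apart on chromosome 3. Itga2b (GRCm39 chromosome 11, 102341397 to 102360955) encodes the platelet integrin αIIb, and Itgb3 (GRCm39 chromosome 11, 104498826 to 104561302) its β3 partner. The genes that the comparisons below turn on are Clca3a1 (GRCm39 chromosome 3, 144435438 to 144466738), a member of the family of calcium-activated chloride channel regulators, Cd59a (GRCm39 chromosome 2, 103926132 to 103947029), an inhibitor of the complement membrane attack complex, and Tpm2 (GRCm39 chromosome 4, 43514697 to 43524949), a tropomyosin. Beside them stand Trpc6 (GRCm39 chromosome 9, 8492905 to 8682359), a cation channel opened by diacylglycerol, Cd226 (GRCm39 chromosome 18, 89195087 to 89290353), an adhesion receptor that T and NK cells also carry, and P2ry12 (GRCm39 chromosome 3, 59123682 to 59170429), the ADP receptor that antiplatelet drugs block.

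Granule chemokines were the most abundant members in TPM, which is a level per transcript length. Over the 298 libraries Ppbp, the precursor of platelet basic protein, averaged 2676 TPM and Pf4, platelet factor 4, 1424 TPM. Tubb1, the tubulin of the platelet's marginal band, averaged 689.6 TPM, and these 3 genes made up 43.1% of the summed TPM of the 42. Among the other granule and secreted proteins, Thbs1 (thrombospondin) averaged 558 TPM, Clu (clusterin) 397, Vwf (von Willebrand factor) 180.0, F5 (coagulation factor V) 134, Mmrn1 (multimerin, which binds factor V) 78.1 and Serpine2 (a protease inhibitor) 39.3 TPM. Of the 42 genes 22 averaged at least 100 TPM and 2 less than 10.

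Among receptors, Itga2b averaged 437 TPM and Itgb3 379.7, Clec1b (the podoplanin receptor CLEC-2) 239, Treml1 (an alpha granule receptor) 198, Cd226 187, P2ry12 64.1, the collagen receptor Gp6 60.8, P-selectin (Selp) 22.3 and the second ADP receptor P2ry1 10.4 TPM. The serotonin transporter Slc6a4, which fills platelets with serotonin from plasma, averaged 85.6 TPM, Clca3a1 31.4 and Trpc6 18.6 TPM. Beside Tubb1 the cytoskeleton genes were Myl9 (myosin regulatory light chain, 519 TPM), Parvb (parvin beta, a partner of integrin-linked kinase, 443 TPM), Dstn (the actin-severing protein destrin, 101 TPM) and Tpm2 (43.0 TPM).

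The signalling genes ran from Nrgn (neurogranin, a calmodulin-binding protein, 513 TPM on average) and Plek (pleckstrin, a substrate of protein kinase C, 407 TPM) over Fermt3 (kindlin, which activates integrins, 216 TPM), Rap1b (a small GTPase upstream of integrins, 158 TPM), Bin2 (a membrane-bending BAR domain protein, 118 TPM) and Rgs18 (a brake on G protein signalling, 74.9 TPM) to Gucy1b1 (25.9 TPM) and Gucy1a1 (3.02 TPM). The eicosanoid enzymes Alox12 (an arachidonate lipoxygenase), Ptgs1 (cyclooxygenase, the target of aspirin) and Tbxas1 (thromboxane synthase) averaged 231, 38.8 and 36.1 TPM. Outside these roles, Ctla2b averaged 101 TPM, Sh3bgrl2 72.0, Tmem40 49.9, Cd59a 46.7 and the imprinted gene Mest 12.7 TPM.

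One member was near 0 in most libraries. Sparc, the matrix protein osteonectin, had a median of 0.125 TPM and was the lowest of the 42 genes in 290 of 298 libraries. It exceeded 1 TPM in 6 libraries, of which 5 were of control mouse 490 (weeks 11, 14, 16, 17 and 18) and 1 of TOTO mouse 476 (week 12). Its highest value, 324.6 TPM, fell in the library of control mouse 490 at week 17 described above. Its mean of 1.42 TPM therefore rests on few libraries, and without the week 17 library it would not have passed the filter on low values. Counts out of 42 below include Sparc, and its changes are those of a gene near 0.

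How alike the genes moved was measured against the mean of 10 core genes (Itga2b, Itgb3, Pf4, Ppbp, Selp, Gp6, Tubb1, Treml1, Clec1b and Slc6a4, leaving out the gene itself) as the correlation of log2(TPM + 1) over the 298 libraries, after subtracting each mouse's mean and leaving out erythroid genes and Rn7s2. Of the 32 members outside the core, 27 reached 0.8, against 4.06% of 10501 genes. Myl9 (0.986), Vwf (0.981), Parvb (0.980) and Alox12 (0.977) followed the core most closely, and Myl9 ranked first of all genes outside the core. The least alike were Sparc (-0.04), Rap1b (0.69), Dstn (0.72), Trpc6 (0.79) and Cd226 (0.79). The points share libraries and their composition, and the members were chosen as platelet genes, so these values describe the list and carry no test.

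The 42 genes together were followed as their share of the TPM outside haemoglobin and Rn7s2. In TKI mice it was 0.828 to 3.02% at week 0, 5.35 to 7.87% at week 1, 3.10 to 6.85% at week 6, 4.90 to 8.94% at week 8, 3.36 to 8.80% at week 10 and 2.20 to 4.45% at week 11. In TOTO mice it was 1.32 to 2.44% at week 0, 6.03 to 8.22% at week 1 and 3.36 to 4.90% at week 6, while at week 7 the mice labelled 476, 482, 483 and 545 stood at 1.99, 2.49, 1.99 and 1.96%. In control libraries this share was 2.13 ± 0.78% (SD over 57 libraries of 3 mice) and ranged from 0.462 to 3.87%. All 7 TKI mice stood above the control mice of the same week at each of weeks 1 to 10, and all 4 TOTO mice at each of weeks 1 to 6. At week 7 the TOTO mice stood at 0 of 4 above, at week 8 at 2 of 4, at weeks 12 and 16 at 0 of 4 and at week 18 at 1 of 4.

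CML mice differed among themselves in this share. The mice labelled 480 and 541 reached 10.2% at week 14 and 8.58% at week 11, the highest values of these mice, and mouse 542 stood at 7.05% in its last library. Mouse 484 stood at 0.668% in its last library, at week 11, below the 3 control mice of that week. The mouse labelled CML 487, in which the transgene was mostly at 0, ranged from 1.11 to 4.15%. The lowest shares of the series were those of the TKI mice 507 (0.209%) and 512 (0.347%) at week 16, their last library.

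**Figure D1:**
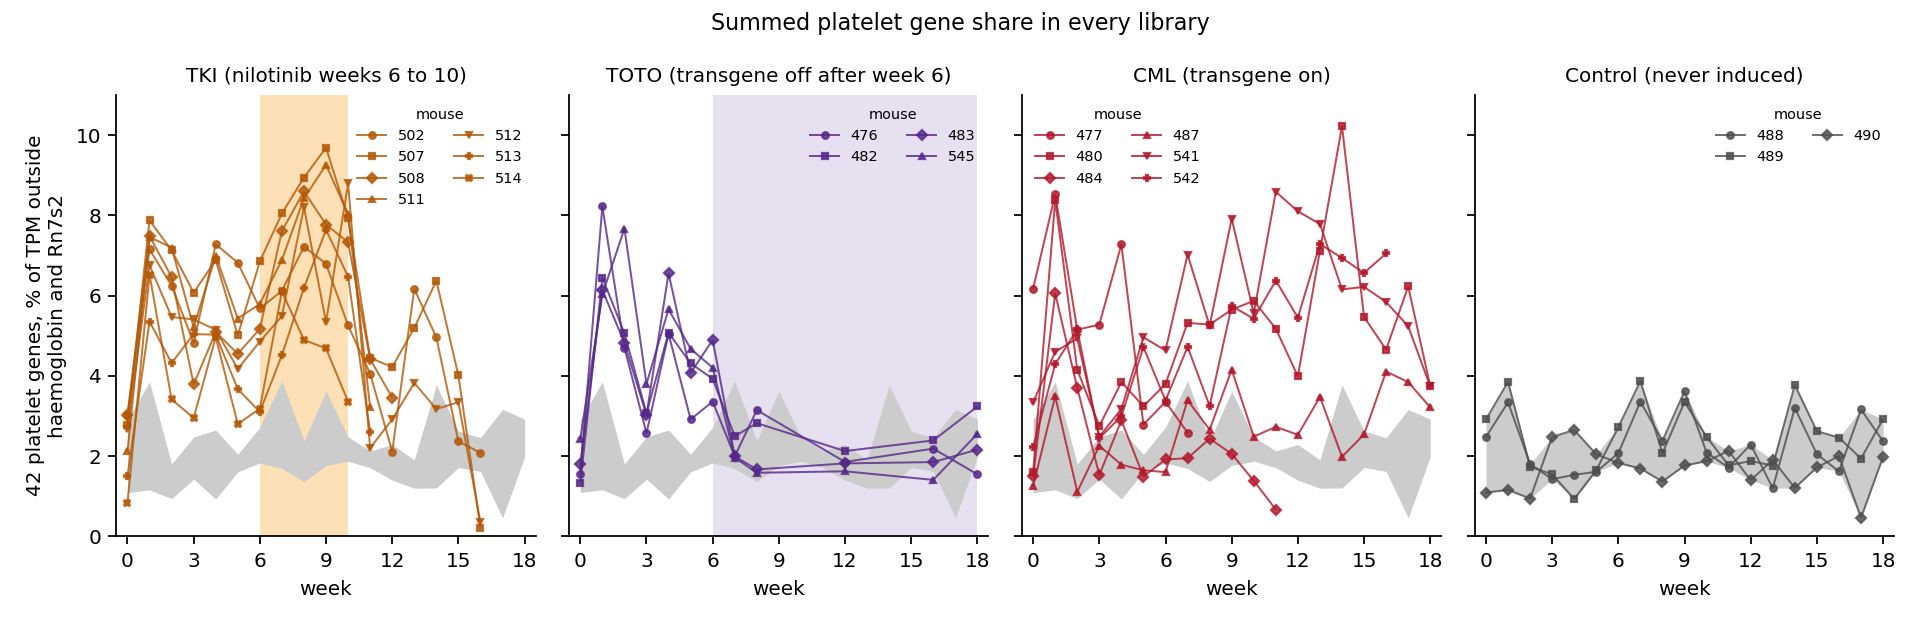
Summed TPM of the 42 platelet genes as a percentage of the TPM outside haemoglobin and Rn7s2 (vertical axis) by week (horizontal axis), with 1 line per mouse in a panel for each cohort (TKI, TOTO, CML and control, left to right); the grey band is the range of the control mice at each week, and coloured shading marks the nilotinib weeks and the weeks with the transgene off. TKI mice stood at 5.35 to 7.87% at week 1 and TOTO mice at 6.03 to 8.22%, while the control libraries ranged from 0.462 to 3.87%.

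The first comparison asks what 1 week without tetracycline changed in the 17 Tet-off mice. Platelet genes rose in all 7 role groups: 34 of the 42 genes were higher at week 1 than at week 0 and 0 were lower, against 3.28% of all tested genes higher and 2.22% lower. The median over the 42 genes was 1.25 ± 1.14 on the log2 scale (SD over 17 mice), up in 15 of 17 mice, and the median tested gene stood at -0.57. After rescaling all 42 passed as higher (25.0% of all genes) with a median of 1.85 ± 0.85, up in 17 of 17. By role, 7 of 9 receptors, 2 of 3 channels and transporters, 8 of 9 granule and secreted proteins, 5 of 5 cytoskeleton genes, 5 of 8 signalling genes, 3 of 3 eicosanoid enzymes and 4 of 5 other genes rose. The deposited count of 34 fell to 23 with batch as a term, with 0 lower and a member median of 1.24.

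Clca3a1 had 1.96 to 124 TPM with a median of 40.3 at week 1, against 0.670 to 42.3 TPM with a median of 3.16 at week 0. The weeks overlap: at week 1 mouse CML 487 had 1.96 TPM, and at week 0 mouse CML 477 already had 42.3 TPM. Its log2 change was 3.05 ± 0.41 (SE; adjusted p = 1.4e-05), higher in 16 of 17 mice. Cd59a had 5.30 to 147 TPM with a median of 61.2 at week 1 and 2.12 to 53.9 TPM with a median of 5.18 at week 0, a change of 2.88 ± 0.37 (SE; adjusted p = 1.4e-05) in 17 of 17 mice. Tpm2 had 2.48 to 104 TPM with a median of 51.9 at week 1 and 1.21 to 35.9 TPM with a median of 5.32 at week 0, a change of 2.66 ± 0.35 (SE; adjusted p = 1.4e-05) in 16 of 17 mice. Control mice had 1.85, 2.10 and 2.05 TPM of Clca3a1 at week 1 and 2.57, 6.52 and 2.11 TPM at week 0, below the week 1 median of Tet-off mice throughout.

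The abundant genes moved less far. Itga2b had 523 to 805 TPM with a median of 625.2 at week 1 in TKI mice, against 40.2 to 220.4 TPM with a median of 134 at week 0, and these ranges do not overlap. In TOTO mice it had 1164, 373, 560.4 and 475 TPM at week 1, against 296, 289, 348 and 197 TPM at week 0, and each of the 4 mice was higher at week 1. In CML mice it had 118 to 531 TPM with a median of 453 at week 1 and 144 to 515 TPM with a median of 262 at week 0, with overlap. Pf4 had 1830.4 to 3070.3 TPM with a median of 2416 at week 1 in TKI mice, against 215 to 712 TPM with a median of 389.8 at week 0, again without overlap.

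8 genes did not pass in the first week: the receptors Cd226 and P2ry12, the channel Trpc6, the matrix protein Sparc, the signalling genes Rap1b, Nrgn and Bin2, and Sh3bgrl2. Cd226 had 110.5 to 465 TPM with a median of 245 at week 1 and 51.6 to 356 TPM with a median of 191 at week 0, and P2ry12 28.8 to 131 TPM with a median of 89.8 at week 1 and 12.3 to 103 TPM with a median of 53.0 at week 0. Values of both weeks overlap widely for both genes. All 8 passed as higher after rescaling, Sparc among them, which was near 0 in most libraries. The haemoglobin share of the week 0 libraries ran from 6.65 to 67.2% and was under 20% in 7 mice (6 Tet-off mice and control mouse 489). Without these 7 mice, a choice made after seeing the data, 22.2% of all tested genes were higher at week 1 and 0.114% lower. Beyond that fit and the rescaling, the part of haemoglobin in the first-week values was not tested. All 6 B cell markers were lower at week 1 than at week 0 (median -1.47) and 3 of 10 neutrophil markers higher, and their part was not tested either.

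In control mice, which stayed on tetracycline, the median over the 42 genes was -0.80 ± 0.73 (SD, n = 3) over the same week as deposited and 0.65 ± 0.43 rescaled, so that its direction turned with the scaling. The difference of Tet-off minus control mice was 2.05 as deposited and 1.20 rescaled, and that of the median tested gene 0.56 and -0.03. By limma 0 of the 42 genes passed (0% of all genes; 39 at an unadjusted p under 0.05), and 0 rescaled. Itga2b had 118, 130.0 and 119 TPM at week 1 in control mice, against 165, 482 and 151 TPM at week 0, and its difference was 2.35 ± 0.68 (SE; adjusted p = 0.318). Of 20 fits that each left out 1 mouse, 19 also gave 0 of the 42 genes. The other, without the mouse labelled CML 487, gave 16 as higher (0.770% of all genes), Itga2b among them at 2.51. Without the 7 mice under 20% haemoglobin at week 0, CML 487 among them, 0 genes passed (0% of all genes). The changes of Tet-off and control mice did not overlap for 1 of the 42 genes, against 0.114% of all genes. Within batches the difference of the medians was 1.93 in 2021_E (2 mice against 2) and 1.51 in 2022_A (10 against 1), while 2022_B holds no control mouse.

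Some of the platelet genes were called lower at week 6 than at week 1, but none when batch was a term of the fit to the deposited values. Of the 42 genes 9 were lower at week 6 than at week 1 and 0 higher, against 2.55% of all tested genes lower and 16.9% higher, with a member median of -0.43 ± 0.90 (SD, n = 17) and the median tested gene at 0.17. These were the receptors Cd226, Selp, P2ry12 and Clec1b, the channel Trpc6, the secreted proteins Ppbp and Mmrn1, the G protein regulator Rgs18 and Sh3bgrl2. After rescaling 40 were lower (32.9% of all genes), all but Thbs1 and Sparc, with a median of -0.69. Cd226 had 28.5 to 337 TPM with a median of 145 at week 6, against 110.5 to 465 TPM with a median of 245 at week 1, a change of -0.89 ± 0.23 (SE; adjusted p = 0.00618). Selp had 2.48 to 57.0 TPM with a median of 21.5 at week 6 and 2.27 to 115 TPM with a median of 41.0 at week 1, a change of -0.83 ± 0.21 (SE; adjusted p = 0.00702), and P2ry12 changed by -0.75 ± 0.22 (SE; adjusted p = 0.0154). Each of the 3 was lower in 13 of 17 mice, and the weeks overlap.

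With batch as a term 0 of the 42 genes passed by limma, with changes of -0.90 for Cd226 (adjusted p = 0.0524), -0.74 for Selp (adjusted p = 0.0907) and -0.75 for P2ry12 (adjusted p = 0.0961), and the member median was -0.41. Taken batch by batch, the 2 mice of 2021_E averaged -0.48, the 10 of 2022_A -0.41 and the 5 of 2022_B -0.46. Without the pairing by mouse 3 genes passed, Cd226 and P2ry12 among them. The count of 9 was 4 without the mouse labelled CML 477, 5 without TOTO 482 and 16 without TKI 502 or without TOTO 545. All 10 neutrophil markers were higher at week 6 than at week 1, and their part in the lower platelet values was not tested. Against week 0, 19 of the 42 genes were higher at week 6 and 0 lower, against 3.86% of all tested genes higher and 12.2% lower, with a member median of 0.83. Set against control mice over weeks 0 to 6, the difference was 1.44 (Tet-off 0.83, control -0.61), and by limma 0 genes passed (0% of all genes; 15 at an unadjusted p under 0.05). The changes of Tet-off and control mice did not overlap for 0 of the 42 genes, against 0.0761% of all genes. Itga2b stood at 1.79 ± 0.82 (SE; adjusted p = 1) in that difference. After rescaling the difference was 0.87 and 6 genes were higher and 0 lower (6.56% and 7.54% of all genes): Itgb3, Clca3a1, Dstn, Tpm2, Bin2 and the thromboxane synthase gene Tbxas1. Within batches the deposited difference was 1.08 in 2021_E and 1.23 in 2022_A.

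No platelet gene was called lower in the first weeks of nilotinib. From week 6 to week 8 in the 7 TKI mice, limma called 0 of the 42 genes (0 at an unadjusted p under 0.05), against 37.7% of all genes lower and 0.380% higher, and the member median was 0.19 ± 0.58 (SD, n = 7), up in 4 of 7, beside -0.43 for the median tested gene. With batch as a term it was -0.02. On the rescaled values, 40 of the 42 genes were higher at week 8 and 0 lower (27.7% and 19.6% of all genes), all but Sparc and Rap1b, with a median of 0.83 ± 0.28, up in 7 of 7. Itga2b had 547 to 822 TPM with a median of 685 at week 8 and 296 to 958 TPM with a median of 639 at week 6, and its change was 0.23 ± 0.26 (SE; adjusted p = 0.482), with overlap. All 10 neutrophil markers were lower at week 8 on both scales (median -2.67 as deposited), and their part in the platelet values was not tested.

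Against untreated CML mice over the same weeks (5 mice), TKI mice differed by a member median of -0.29 as deposited (-0.54 with batch as a term), and limma called 0 of the 42 genes (0 at an unadjusted p under 0.05), against 0.0380% of all genes higher and 11.4% lower. The changes of both cohorts did not overlap for 0 of the 42 genes, against 4.79% of all genes. Itga2b had 684, 349, 212, 371 and 303 TPM at week 8 in CML mice, against 462, 118, 111, 322 and 391 TPM at week 6, and the difference of TKI minus CML mice was -0.35 ± 0.40 (SE; adjusted p = 0.499). After rescaling the difference was 0.50 and 12 genes were higher, against 11.4% of all genes: Cd226, Trpc6, Vwf, Mmrn1, Clu, Fermt3, Plek, Nrgn, Ptgs1, Alox12, Sh3bgrl2 and Ctla2b. Within batches the deposited difference was -1.51 in 2022_A (4 mice against 1) and 0.36 in 2022_B (3 against 2), so that its direction was not the same in both.

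By the end of treatment, at week 10, the member median over week 6 was 0.46 ± 0.62 (SD, n = 7), up in 6 of 7 mice, and 1 of the 42 genes was higher (2.18% of all genes), Mest, and 0 lower (3.18%). Mest had 31.0, 25.9, 52.1, 41.1, 54.7, 48.1 and 19.2 TPM at week 10 in the mice labelled 502, 507, 508, 511, 512, 513 and 514, against 22.4, 24.7, 16.4, 22.5, 19.8, 11.5 and 13.9 TPM at week 6. It was higher in 7 of 7 mice, by 0.97 ± 0.25 (SE; adjusted p = 0.0367), but the call was lost with batch as a term, without the pairing by mouse, and when any of 9 mice was left out (TKI 502, 507, 508, 512, 513 or 514, CML 487 or 541, or control 489). After rescaling 19 genes were higher, against 20.1% of all genes.

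After nilotinib ended the platelet genes fell almost without exception. Between week 10 and the last library of the 6 TKI mice that had a later one (weeks 11, 12 or 16), 40 of the 42 genes were lower, against 17.5% of all tested genes, and 40 after rescaling (28.0%). The member median was -2.46 ± 1.93 (SD, n = 6), from -5.30 to -0.46 and down in 6 of 6 mice, with the median tested gene at -0.06. All 9 receptors, all 3 channels and transporters, 8 of 9 granule and secreted proteins, 5 of 5 cytoskeleton genes, 7 of 8 signalling genes, 3 of 3 eicosanoid enzymes and 5 of 5 other genes fell. The exceptions were Sparc (0.03) and Rap1b (-0.48), which did not pass. Left-out mice moved the count between 40 and 41.

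Slc6a4 had 8.84, 0.107, 133, 104, 1.41 and 60.8 TPM in the last libraries of the mice labelled 502, 507, 508, 511, 512 and 513, against 178, 212, 272, 254, 357 and 220.4 TPM at week 10. Every mouse was lower in its last library and the weeks do not overlap. The change was -3.86 ± 1.02 (SE; adjusted p = 0.0049). Nrgn had 40.9, 2.71, 373, 701, 12.2 and 425 TPM in the last libraries and 665, 976, 1006, 881, 1092 and 871 TPM at week 10, a change of -3.53 ± 0.86 (SE; adjusted p = 0.00268). Only mouse 511 kept its last value of Nrgn above the lowest value of week 10. Mest had 0.908, 0.0231, 12.1, 20.6, 0.218 and 11.2 TPM in the last libraries and 31.0, 25.9, 52.1, 41.1, 54.7 and 48.1 TPM at week 10, a change of -3.22 ± 0.68 (SE; adjusted p = 7.4e-04), without overlap. Ppbp had 903, 49.8, 2230.4, 3603, 193 and 2209 TPM in the last libraries and 4688, 4999, 7258, 6428, 8499.9 and 6146 TPM at week 10, lower in 6 of 6 mice.

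The size of the fall differed with the week of the last library. The mice labelled 502, 507 and 512 had their last library at week 16, and their member medians over week 10 were -1.96, -5.30 and -4.39. Mouse 508 (week 12) had -1.49, and mice 511 and 513 (week 11) had -0.46 and -1.18. From week 10 to week 11 the mean over 6 mice was -0.69 ± 0.50 (SD), and 29 genes were lower in all 6. From week 11 to the last library the mean over the 4 mice with a later one, all of batch 2022_A, was -2.73 ± 1.83 (SD; from -5.18 to -1.18), down in 4 of 4. Over week 10, the last libraries of the 4 mice of batch 2022_A (weeks 12 and 16) averaged -3.28 and those of the 2 mice of 2022_B (week 11) -0.82, so the batches differ in the week of the last library. In control mice the mean was -0.26 ± 0.42 (SD, n = 3; from -0.73 to 0.09) from week 10 to 11 and -0.06 ± 0.46 (from -0.56 to 0.35) from week 10 to 16. The value of mouse 511 at week 11 lies within the control range of the step from week 10 to 11. In untreated CML mice the mean from week 10 to the last library was -0.35 ± 0.75 (SD, n = 5; from -1.61 to 0.16), down in 2 mice and up in 3.

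Other cell types moved at the same time. All 10 neutrophil markers were higher in the last libraries, with a summed 16451 to 32816 TPM against 2015 to 6826 TPM at week 10, while 6 of 6 B cell, 5 of 6 T cell and 5 of 5 NK cell markers were lower. Haemoglobin took 0.331 to 2.48% of TPM at week 11 in mice 507, 508, 511 and 512. The part of these shifts in the platelet values was not tested, and the member median after rescaling was -2.38.

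**Figure D2:**
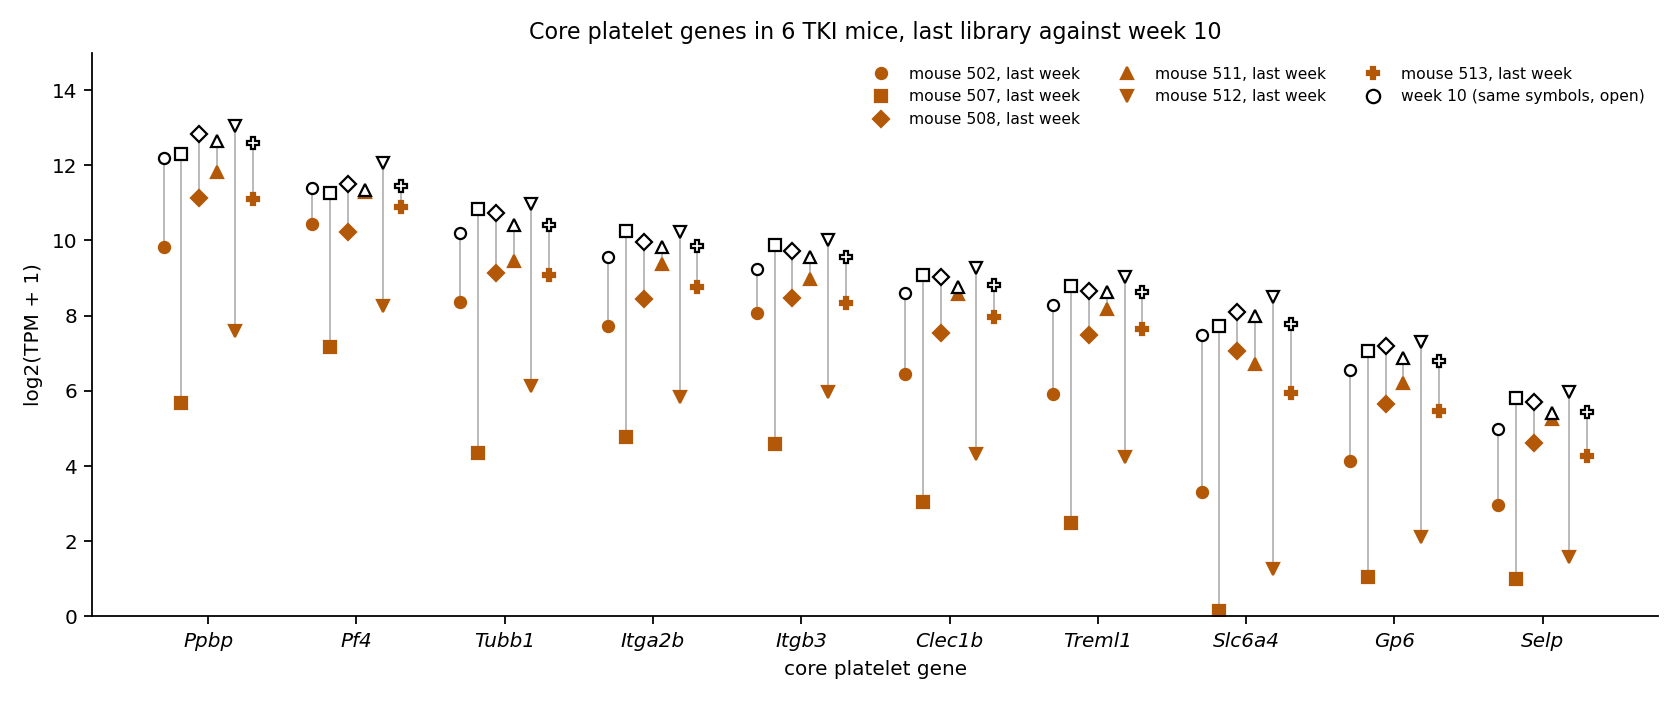
Level of the 10 core platelet genes on the log2(TPM + 1) scale (vertical axis) in the 6 TKI mice with a library after week 10, where filled symbols are the last library, open symbols week 10 and a grey line joins both in each mouse. The filled symbols lie below the open ones throughout, lowest in mice 507 and 512, as for Slc6a4 with 0.107 and 1.41 TPM.

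After the switch back to tetracycline the platelet genes split on the deposited scale, but not after rescaling. From week 6 to week 8 in the 4 TOTO mice, 10 of the 42 genes were lower and 5 higher, against 4.45% of all tested genes lower and 70.3% higher, and the median tested gene stood at 0.94. The member median was -0.18 ± 1.14 (SD, n = 4; -0.38 with batch as a term), down in 2 of 4 mice. After rescaling 36 genes were lower (31.2% of all genes) and 0 higher, with a median of -1.30 ± 0.54, down in 4 of 4. With batch as a term 8 genes were lower and 0 higher, and without the pairing by mouse 6 were lower and 2 higher. All 4 TOTO mice are of batch 2022_A, so the fit takes its batch term from the other cohorts. It cannot tell what part batch had in the TOTO values. Without mouse 545 the deposited split was 5 lower and 10 higher, with a median of 0.27, and without mouse 483 it was 6 lower and 3 higher. The shares of all genes under these settings are not printed, so these counts only describe how the split moved. The 10 lower genes were the receptors Itgb3, Selp and Treml1, the transporter Slc6a4, Clca3a1, Serpine2, Dstn, Tpm2, Tbxas1 and Cd59a. The 5 higher ones were Cd226, P2ry12, Trpc6, Rap1b and Sh3bgrl2, and of these 0 was higher and 1, Rap1b, was lower after rescaling.

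Clca3a1 had 7.24, 7.30, 4.83 and 3.16 TPM at week 8 in the mice labelled 476, 482, 483 and 545, against 14.7, 14.3, 34.9 and 50.5 TPM at week 6. Cd59a had 10.2, 12.5, 6.88 and 5.73 TPM at week 8 and 22.5, 32.8, 57.7 and 75.7 TPM at week 6. Tpm2 had 14.5, 10.3, 9.78 and 4.77 TPM at week 8 and 17.7, 41.0, 71.2 and 59.0 TPM at week 6. For all 3 genes every value of week 8 lay below every value of week 6. The changes were -2.02 ± 0.38 (SE; adjusted p = 1.2e-04) for Clca3a1, -2.20 ± 0.36 (SE; adjusted p = 3.3e-05) for Cd59a and -2.07 ± 0.39 (SE; adjusted p = 1.2e-04) for Tpm2, lower in 4 of 4 mice each. At week 18 Clca3a1 was at 2.87, 6.84, 3.26 and 3.46 TPM and Cd59a at 4.19, 9.94, 5.15 and 5.40 TPM in these mice, beside 2.87, 2.27 and 4.19 TPM and 5.31, 4.35 and 9.46 TPM in control mice.

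The higher genes behaved otherwise. Trpc6 had 39.7, 23.0, 24.6 and 19.2 TPM at week 8, against 5.33, 6.57, 12.4 and 21.4 TPM at week 6, a change of 1.28 ± 0.39 (SE; adjusted p = 0.0057). Cd226 had 318, 285, 214 and 209.5 TPM at week 8, against 54.0, 64.0, 146 and 281 TPM at week 6, a change of 1.20 ± 0.40 (SE; adjusted p = 0.00966). P2ry12 had 103, 81.1, 53.7 and 52.4 TPM at week 8, against 18.3, 14.1, 47.2 and 106 TPM at week 6, a change of 1.01 ± 0.44 (SE; adjusted p = 0.0421). In mouse 545, the highest of the 4 at week 6, all 3 genes were lower at week 8, and in the other mice they were higher. The calls of all 3 were lost with batch as a term and without mouse 476, and those of Cd226 and P2ry12 also without mouse 482. Their rescaled changes were 0.20, 0.04 and -0.12, and none of these passed.

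The same switch was also read at week 7. There 40 of the 42 genes were lower than at week 6, against 36.2% of all tested genes, with a member median of -1.90 (-1.01 rescaled), when haemoglobin took 62.0 to 70.4% of TPM in the 4 mice. Cd226 had 45.8, 105, 48.6 and 20.4 TPM at week 7 and Trpc6 5.32, 11.7, 8.40 and 3.46 TPM, and the member median of week 8 over week 7 was 1.71 as deposited but -0.22 rescaled. Without erythroid genes and Rn7s2, 33 of the 42 genes were lower at week 7, against 17.4% of all genes tested. At week 8 all 10 neutrophil markers were lower than at week 6, with a summed 879 to 1244 TPM against 3731 to 18935 TPM, all 6 B cell markers were higher, with 885 to 1544 TPM against 60.7 to 258 TPM, as were 6 of 6 T cell and 5 of 5 NK cell markers. On the deposited scale 70.3% of all tested genes were higher at week 8 than at week 6 and 4.45% lower. T and NK cells also carry Cd226, and the part of the marker shifts in its value was not tested.

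**Figure D3:**
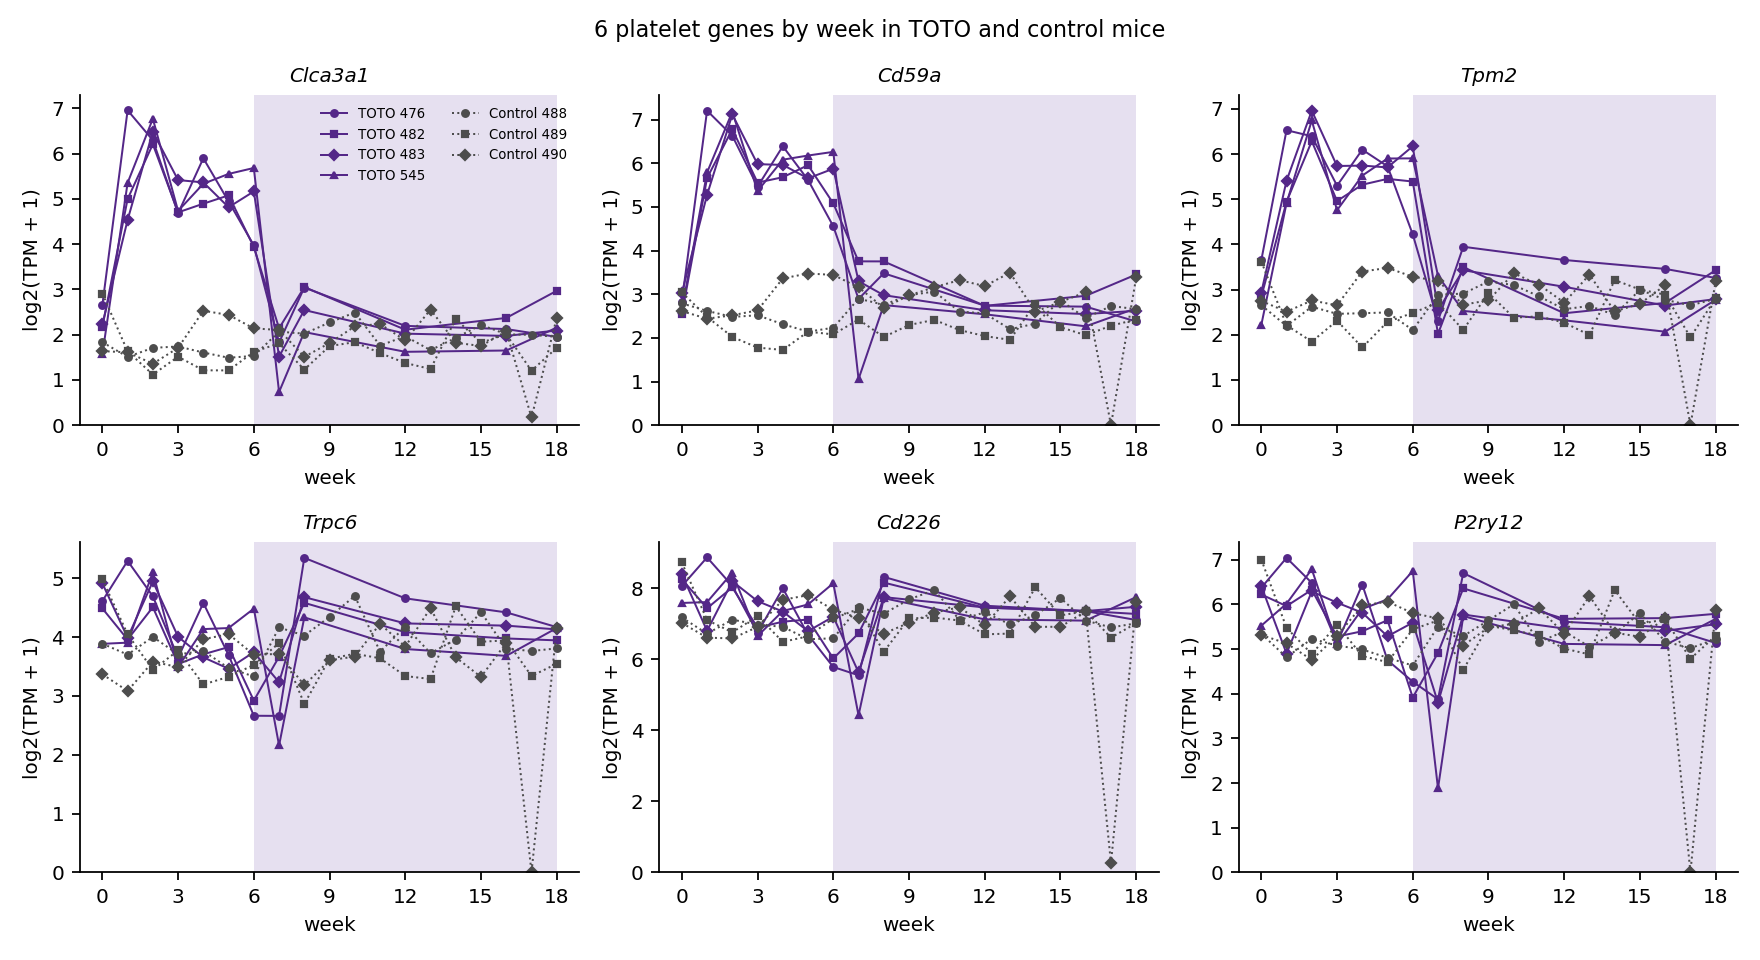
Level of Clca3a1, Cd59a, Tpm2, Trpc6, Cd226 and P2ry12 on the log2(TPM + 1) scale (vertical axis) by week (horizontal axis) in each TOTO mouse (solid lines) and each control mouse (dotted lines), with the weeks after the switch back to tetracycline shaded. Clca3a1, Cd59a and Tpm2 stood above every control mouse of the week at weeks 1 to 6, and from week 12 the ranges of both cohorts overlap, whereas those of Cd226 and P2ry12 overlap at weeks 1 and 3 to 6 already.

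Set against untreated CML mice over the same weeks, 12 of the 42 genes were lower in TOTO mice (3.25% of all genes lower) and 0 higher (49.2% of all genes), with a difference of the medians of -0.66, and after rescaling 37 were lower (27.0%) and 0 higher (30.4%) with -1.63. They were the 10 genes lower within TOTO mice, and Pf4 and Myl9 in addition. Cd59a differed by -2.72 ± 0.48 (SE; adjusted p = 3.3e-04), Clca3a1 by -2.56 ± 0.51 (SE; adjusted p = 9.5e-04) and Tpm2 by -2.56 ± 0.52 (SE; adjusted p = 0.00115). Cd59a had 87.5, 37.4, 6.68, 46.3 and 31.0 TPM at week 8 in the CML mice 480, 484, 487, 541 and 542, against 58.7, 13.2, 4.50, 38.7 and 34.7 TPM at week 6, so that mouse 487 was near control level in both weeks. The changes of both cohorts did not overlap for 4 of the 42 genes, against 10.2% of all genes. With batch as a term 5 genes passed, and without the pairing by mouse 6, all lower. Left-out mice moved the count from 7 (without TOTO 483) to 16 (without TOTO 476). Batch 2022_A alone gave -1.60 with 4 mice against 1.

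Against TKI mice under nilotinib, the other way of stopping the kinase, 8 of the 42 genes were lower in TOTO mice (1.23% of all genes) and 1 higher (80.8%), with a difference of the medians of -0.37, and after rescaling 41 were lower (26.1%) with -2.13. The 8 were Selp, Treml1, Slc6a4, Clca3a1, Serpine2, Dstn, Tpm2 and Cd59a. Clca3a1 differed by -2.13 ± 0.47 (SE; adjusted p = 3.6e-04), Tpm2 by -2.15 ± 0.48 (SE; adjusted p = 4.0e-04) and Cd59a by -2.02 ± 0.45 (SE; adjusted p = 3.6e-04). In TKI mice Clca3a1 had 40.3 to 74.4 TPM with a median of 55.9 at week 8 and 18.8 to 81.8 TPM with a median of 62.6 at week 6, and Cd59a 44.8 to 94.2 TPM with a median of 70.3 at week 8 and 28.2 to 142 TPM with a median of 91.6 at week 6. At week 8 every TKI value of both genes lay above every TOTO value.

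Rap1b was the exception in the other direction. It had 230.2, 169.5, 208 and 142 TPM at week 8 in TOTO mice, against 55.5, 75.3, 141 and 205 TPM at week 6, and 112, 193, 156, 170.4, 164, 177 and 181 TPM at week 8 in TKI mice, against 244, 303, 268, 301, 216, 159 and 124 TPM at week 6. Its difference of TOTO minus TKI mice was 1.24 ± 0.45 (SE; adjusted p = 0.0135), which turned to -0.57 after rescaling and was not called without TOTO 476. Left-out mice moved the count of 9 genes from 6 (without TOTO 483) to 17 (without TOTO 476). Batch as a term gave 7 genes, 6 lower and 1 higher, with a difference of the medians of -0.36. Within batch 2022_A (4 mice against 4) the deposited difference of the medians was -0.09, and without TOTO 545 the pooled value turned to 0.08. The changes of both cohorts did not overlap for 0 of the 42 genes on the deposited scale, against 28.0% of all genes.

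Among the 42 genes, those that rose most in the first week without tetracycline fell most in TOTO mice after its return, here called shut-off. Against control mice over that first week, 0 of the 42 genes passed by limma, as deposited and rescaled. The 13 CML and TKI mice used here include the CML mouse in which the transgene was mostly at 0. What part BCR-ABL had in this order was not tested. Over the 42 genes, the mean first-week change in the 13 CML and TKI mice and the change from week 6 to week 8 in the 4 TOTO mice, which are other animals, had a Spearman correlation of -0.88 (Pearson -0.90) as deposited, -0.93 rescaled and -0.92 without erythroid genes and Rn7s2. The 6 largest first-week rises, Clca3a1 (2.98), Cd59a (2.77), Tpm2 (2.70), Selp (2.65), Dstn (2.41) and Slc6a4 (2.12), were also the 6 largest falls at shut-off, at -2.02, -2.20, -2.07, -1.58, -1.61 and -1.17. At the other end, Sparc (0.20), Rap1b (0.48), Trpc6 (0.71), Cd226 (0.77), Nrgn (0.78) and Sh3bgrl2 (0.88) moved least in the first week and had 0.07, 0.81, 1.28, 1.20, 0.56 and 0.89 at shut-off. The genes of a role did not stay together in this order, since the receptors Selp and Cd226 and the channels Clca3a1 and Trpc6 lie near opposite ends.

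The order differed by comparison. First-week changes in CML and in TKI mice correlated at 0.93 (Spearman) over the 42 genes. Those of CML and TKI mice against control mice over the same week gave -0.09, those of CML mice against the change of TKI mice from week 6 to 8 gave -0.18 and from week 10 to 11 -0.08, and those of TOTO mice against the fall of TKI mice after week 10 gave 0.05. The genes share libraries and their composition, and all these correlations are descriptions over 42 chosen genes.

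**Figure D4:**
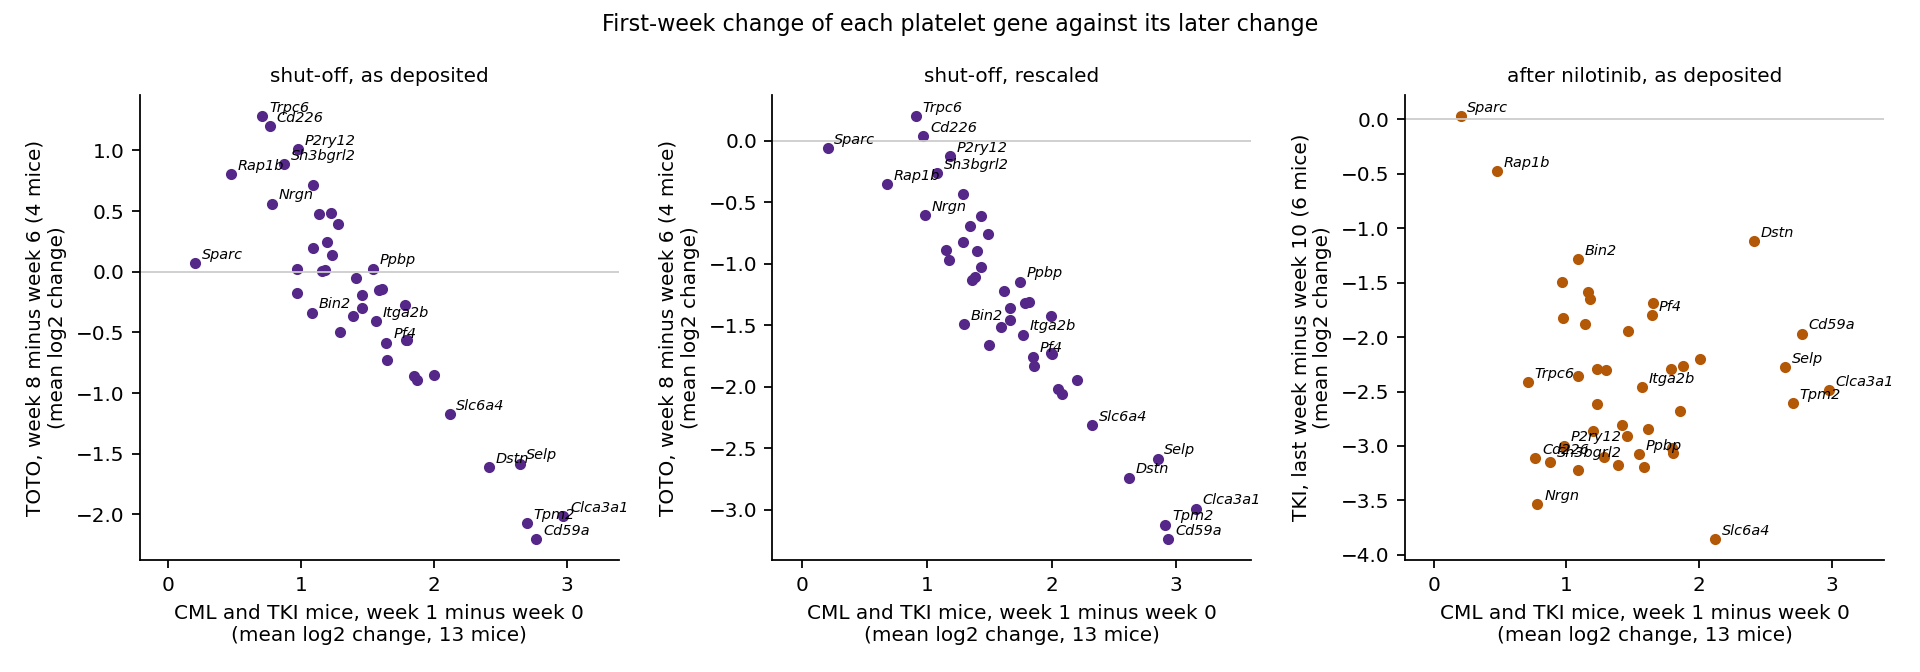
Mean log2 change of each of the 42 genes in the first week of CML and TKI mice (horizontal axis, 13 mice) against its mean log2 change in TOTO mice from week 6 to week 8 (left, as deposited, and middle, rescaled) and in TKI mice from week 10 to the last library (right, as deposited), with 1 point per gene. Clca3a1, Cd59a and Tpm2 lie at the lower right in the shut-off panels (Spearman -0.88 and -0.93), and in the right panel Slc6a4 and Nrgn lie lowest and Sparc and Rap1b highest.

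Late libraries were set against control mice over weeks 0 to 18. In the 4 TOTO mice the difference of the medians was -0.14 (TOTO -0.48 ± 0.53, control -0.34 ± 1.11, SD), with the median tested gene at -0.31. By limma 0 of the 42 genes passed (0 at an unadjusted p under 0.05), against 0.0380% of all genes higher and 0.00951% lower, and 0 passed after rescaling, where the difference was 0.16. Itga2b had 162, 223, 185 and 238 TPM at week 18 in TOTO mice and 157, 166 and 220.3 TPM in control mice. At week 0 it had 296, 289, 348 and 197 TPM in TOTO mice and 165, 482 and 151 TPM in control mice. Its difference was -0.11 ± 0.74 (SE; adjusted p = 1). The sign of both values turned with single left-out mice (from -0.74 to 0.34 for the median and from -0.70 to 0.33 for Itga2b, with control 489 and control 490 at the ends). A p that misses the threshold in 4 mice against 3 does not show that the cohorts were alike. Starting at week 1, the change to week 18 was lower in TOTO than in control mice for 22 genes, against 1.95% of all genes. The difference of the medians for that change was -1.63, and it compares changes, not levels at week 18.

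In untreated CML mice the last library (weeks 7 to 18) minus week 0, minus the change of control mice to week 18, gave a difference of the medians of 0.45 (CML 0.11 ± 1.28, control -0.34 ± 1.11, SD), with the median tested gene at 0.09. It ran from -0.15 (without control 489) to 0.94 (without control 490) when single mice were left out, so that 1 control mouse turned its direction. By limma 0 of the 42 genes passed (0% of all genes; 2 at an unadjusted p under 0.05), and 0 rescaled. Itga2b had 565, 788, 64.1, 190.5, 661 and 432 TPM in the last libraries of the mice labelled 477, 480, 484, 487, 541 and 542, against 515, 298, 276, 248, 183 and 144 TPM at week 0. Mouse 484 was lowest, mice 484 and 487 were lower than at their week 0, and the other mice were higher. The difference for Itga2b was 0.77 ± 0.93 (SE; adjusted p = 1). Within batches the difference of the medians was 1.53 in 2021_E (2 mice against 2) and -1.03 in 2022_A (2 against 1), in opposite directions.

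**Figure D5:**
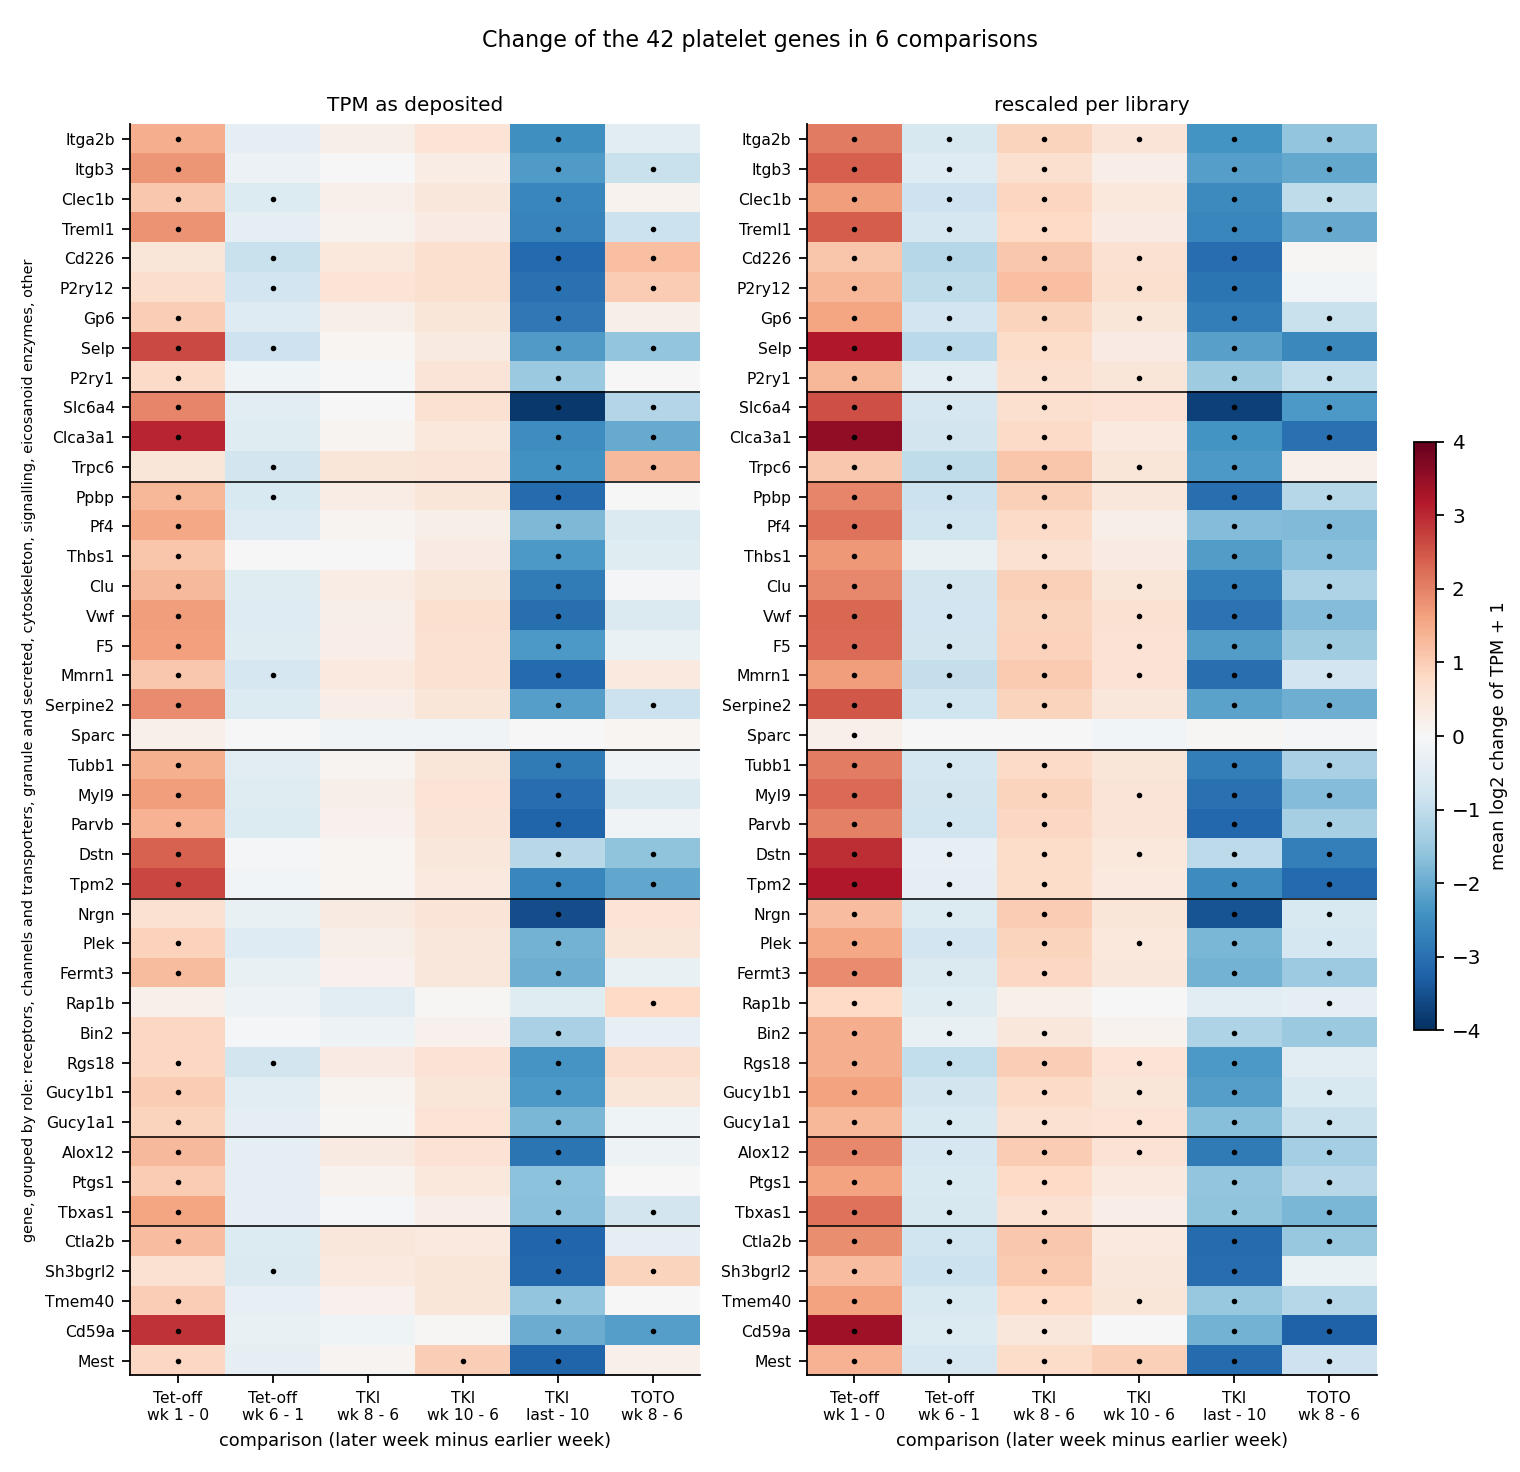
Mean log2 change of TPM + 1 (colour, red higher and blue lower in the later week) of the 42 genes (rows, grouped by role) in 6 comparisons (columns), as deposited on the left and rescaled on the right, with a dot where the adjusted p was under 0.05. The first-week column holds 34 dots as deposited and 42 rescaled, and the column after nilotinib holds 40 on both sides.

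Other platelet genes, listed by function apart from the 42, were counted in the same comparisons. In the first week all 4 genes of the von Willebrand factor receptor were higher, with Gp1bb at 2.51 (adjusted p = 1.8e-05) and Gp1ba at 1.73. Of 15 other surface receptors 9 were higher and 0 lower, with the ATP-gated channel P2rx1 at 2.03 and the thrombin receptor F2rl3 at 1.69. Of 14 further cytoskeleton genes 7 were higher, with Tuba4a at 1.81 and Tpm1 at 1.25. Of 21 integrin and ITAM signalling genes 3 were higher, with the adaptor Lat at 1.16 and talin (Tln1) at 1.14. Of 8 other cargo genes 1 was higher, F13a1 at 2.05, which monocytes also express, of 13 genes of granule biogenesis and release 1, Rab27b at 1.36, and of 11 megakaryocyte transcription factors 1, Gata1 at 0.71 (adjusted p = 0.0341). These counts stand beside 3.28% of all tested genes higher and 2.22% lower. After rescaling, where 25.0% of all genes were higher and 40.9% lower, the transcription factors had 6 higher and 3 lower, the biogenesis genes 7 and 2, the cargo genes 7 and 1 and the signalling genes 16 and 3, while all 15 surface receptors and all 14 cytoskeleton genes were higher.

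After nilotinib the same lists were mostly lower. All 4 von Willebrand receptor genes fell, with Gp5 at -2.15 and Gp1ba at -2.63, and all 14 cytoskeleton genes, with vinculin (Vcl) at -1.85 and Tpm1 at -2.37. Of 15 other surface receptors 10 fell, with the collagen integrin Itga2 at -2.80 and the tetraspanin Cd9 at -2.21, and 1 rose, the tetraspanin Cd63 at 1.21. Of 11 transcription factors 6 fell, with Gata1 at -1.41 and Mef2c, which B cells also express, at -2.17. Of 8 other cargo genes 5 fell, with Angpt1 at -2.67 and Pdgfa at -1.73, and 1 rose, App at 1.75. Of 13 biogenesis genes 4 fell, with Rab27b at -2.71 and Stx11 at -1.09, and 4 rose, with Rab27a at 1.36 and Nbeal2 at 1.21. Of 21 signalling genes 10 fell, with Fyn at -2.02 and Prkca at -2.29, and 1 rose, Apbb1ip at 0.86. Rab27b and Rab27a, near relatives in granule transport, therefore moved in opposite directions. Of all tested genes 17.5% were lower and 10.2% higher. After rescaling, where 28.0% of all genes were lower and 27.3% higher, the biogenesis genes had 4 lower and 6 higher, the signalling genes 13 and 3, the transcription factors 7 and 0, the cargo genes 6 and 1 and the surface receptors 11 and 1.

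At shut-off, from week 6 to week 8 in TOTO mice, Gp1bb fell by 1.87 on the log2 scale as the 1 von Willebrand receptor gene that passed, and all 4 fell after rescaling. Among the other surface receptors 3 fell, with Cd63 at -1.62 and F2rl3 at -1.21, and 2 rose, Tbxa2r (the thromboxane receptor) at 0.89 and Esam at 0.79. 6 of 11 transcription factors rose, with Mef2c at 2.61 and Ldb1 at 1.71, and 0 fell. Of the signalling genes 8 rose, with the kinases Syk at 1.68 and Btk at 1.40, both also made by B cells, and 1 fell, Fcer1g at -0.74. 5 of 13 biogenesis genes rose, with Vps33b at 1.37 and Hps1 at 1.02. Of the other cargo genes Ccl5, which T and NK cells make, rose (1.43), and F13a1 (-1.67) and App (-1.26) fell. Of 14 cytoskeleton genes 1 fell, Tuba4a at -1.31. These counts stand beside 70.3% of all tested genes higher and 4.45% lower, and they turned with the scaling: rescaled, with 36.6% of all genes higher and 31.2% lower, the surface receptors had 0 higher and 13 lower, the transcription factors 3 higher and 5 lower, the signalling genes 2 higher and 15 lower, the biogenesis genes 1 higher and 10 lower, the cargo genes 0 higher and 6 lower and the cytoskeleton genes 0 higher and 14 lower.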

How the data were processed

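The deposited values are TPM per gene (a level per transcript length, relative to the library), made by the authors with STAR and Salmon on GRCm39 per the submitters' processing notes; the sources used here give no versions. Sequencing depth cannot be recovered from TPM, and no interval for counting error is printed. Library sums ran from 989100 to 999879, and 2552 to 13256 genes reached 1 TPM. Of 14605 genes, 14537 IDs matched GENCODE. The human transgene entries hold 4 rows.

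Each library was assigned to mouse, week and cohort by its title. Genes with a mean of at least 1 TPM were kept (10519). For each mouse 1 change of log2(TPM + 1) was computed and tested with limma 3.58.1 (R 4.3.3, trended variance), with a term for each cohort and Benjamini-Hochberg adjustment over all genes at 0.05. Every p printed with this report is such an adjusted p. Fold changes on this scale understate the change of low genes. Rescaled values used 4339 genes for the size factors. The mouse pairs its own libraries, by label: residuals of the same mouse correlated at 0.176 on average between weeks 0 and 1 and 0.330 between weeks 6 and 8, against -0.041 and -0.074 with other mice of its cohort. Genes named with values were the 10 core genes as far as needed and, in each comparison, the 3 with the largest rise and the 3 with the largest fall among those that passed; of the other platelet lists, the 2 with the smallest p in each direction. Further members were named to account for all 42. Members and lists were chosen with earlier results of these data known. The tests were checked on simulated data. Promoters are from RefSeq (GRCm38.p6). Alternatives are given in the closing section. The sources used here do not say whether week 6 blood preceded the first dose or the return of tetracycline.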

Additional observations from a re-analysis of the deposited data

Results flagged for a closer look

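At week 7 the mouse labelled TOTO 482 had a member share of 2.49% of the TPM outside haemoglobin and Rn7s2, while the other 3 TOTO mice lay between 1.96 and 1.99%. It was the 1 outlying sample among 39 groups of 4 to 7 mice, where chance marks about 1 group in 20.

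From week 6 to week 8 the change in TOTO mice differed from that in untreated CML mice for 12 of the 42 genes. All 12 were lower in TOTO mice by limma's test of the difference on the log2 scale, among them Cd59a (-2.72), Clca3a1 (-2.56) and Tpm2 (-2.56). Of all tested genes 3.25% were lower and 49.2% higher in that comparison. Over the same weeks the change in TOTO mice differed from that in TKI mice for 9 of the 42 genes. Tpm2 (-2.15), Clca3a1 (-2.13) and Cd59a (-2.02) were lower in TOTO mice and Rap1b (1.24) higher, against 1.23% of all tested genes lower and 80.8% higher. All TOTO mice belong to batch 2022_A, as do 4 TKI mice and 1 of the CML mice in this comparison. With batch as a term 5 genes passed against CML mice, all lower, and 7 against TKI mice, 6 lower and 1 higher. Beyond these fits and the within-batch values in the report, the part of batch in these differences was not tested.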

How the results depend on the processing

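Comparisons are named by their weeks, and counts are of 42 genes. Where no share of all genes is printed beside a count in this section, the count only describes how the main count moved. The named first-week rises (Clca3a1, Cd59a and Tpm2) and falls after nilotinib (Slc6a4, Nrgn and Mest) kept their direction under the alternatives run. Clca3a1 missed the threshold in the first week with no filter on low values (3.05, adjusted p = 0.0598). Nrgn missed it at week 11 against week 10 (-0.65, adjusted p = 0.122), and the others stayed on their side. The first-week count of 34 was 23 with batch as a term and 39 without the pairing by mouse. After nilotinib the count was 40 under both. Rescaling gave 40 genes for Tet-off mice at week 6 against week 1, 6 for week 6 against control mice, 40 with a median of 0.83 for TKI mice at week 8, 12 with a median of 0.50 and Itga2b at 0.46 for TKI against CML mice, 19 for TKI mice at week 10, 36 with P2ry12 at -0.12 for TOTO mice at week 8, 37 for TOTO against CML mice, 41 with a median of -2.13 and Rap1b at -0.57 for TOTO against TKI mice, and 0.18 for Itga2b in TOTO against control mice at week 18. Without erythroid genes and Rn7s2 the values were, in the same order, 40 for week 6 against week 1, 39 for TKI mice at week 8, a median of 0.34 and Itga2b at 0.29 against CML mice, 26 at week 10, 31 for TOTO mice at week 8, 30 against CML mice, 37 with a median of -1.53 against TKI mice, and Itga2b at 0.18 at week 18. Without the replicate block (mouse pairing) the counts were 3 for week 6 against week 1, 0 for TKI mice at week 10, 8 for TOTO mice and 6 for TOTO against CML mice; with batch as a term they were 0, 0, 8 and 5. With a pseudocount of 0.1, 1 gene passed for TKI against CML mice.

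Week 0 in place of week 1 gave 19 genes, a median of 0.83 and Selp at 1.82 for week 6. Week 1 in place of week 0 gave a median of -0.63 and Itga2b at -0.57 for week 6 against control mice, Itga2b at -0.67 for the last CML libraries, and 22 genes with a median of -1.63 for TOTO mice at week 18. Week 7 in place of week 8 gave 40 genes, a median of -1.90, Trpc6 at -0.52, Cd226 at -1.20 and P2ry12 at -1.51 in TOTO mice, and, without erythroid genes, a choice made after seeing the data, 33 genes, Cd226 at -0.27 and P2ry12 at -0.67. Week 9 in place of week 10 gave 7 genes (2.28% of all genes higher). Without mice whose week 0 library held under 20% haemoglobin, also chosen after seeing the data, 10 genes passed for week 6 against control mice (22.8% of all genes higher). The cause of these differences was not tested.

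Leaving out 1 mouse at a time gave 0 to 16 genes for week 1 against control mice, 4 to 16 for week 6 against week 1, 0 to 5 for TKI mice at week 10, 9 to 17 for TOTO mice at week 8 (15 without TOTO 545, where the split turned), 7 to 16 against CML mice and 6 to 17 against TKI mice. The medians ran from -0.62 to 0.27 for TOTO mice, -0.81 to 0.08 against TKI mice, -0.15 to 0.94 for the last CML libraries and -0.74 to 0.34 for TOTO mice at week 18, with Itga2b there from -0.70 to 0.33.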

Other observations

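Genes outside the 42 that followed the core platelet genes closely included Tgfb1i1 (likeness 0.985), a focal adhesion adaptor, Pros1 (0.982), the anticoagulant protein S, Lgalsl (0.982), Gp1ba (0.980), part of the von Willebrand factor receptor, Rab27b (0.977), a GTPase of granule transport, Sord (0.977), Muc13 (0.976), Mpig6b (0.975), an inhibitory platelet receptor, and Capn3 (0.975). Likeness is the correlation over 298 libraries of log2(TPM + 1) with the mean of the 10 core genes within mice. They were taken from the top of the ranking after the values were seen, share their libraries, and carry no test. Tgfb1i1 averaged 15.5 TPM, Pros1 56.5, Lgalsl 62.4 and Sord 92.4 TPM over all libraries.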
